A study of Homo sapiens with 6 samples.

Results

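UCON and Eulor elements are repeat families of very old origin. Their transcripts were followed here in human embryonic stem cells of the established line H9, which were sampled as 3 groups with 2 libraries each. The elements were taken by name: every entry of the repeat count table whose name starts with UCON or Eulor and that is also listed in the deposited table of CPM, a count scaled to a common library total. This gave 115 of the 7383 entries of the CPM table, 94 UCON and 21 Eulor. The count table, with 15600 entries in all, holds 120 such names. UCON87B and UCON9B had 0 counts in all libraries, and UCON103, UCON56 and UCON75 had 3 counts each, so these 5 fall outside. Just inside stand Eulor7 with 10 counts over the 6 libraries, UCON87 with 11 and UCON58 with 20.

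UCON elements were found among ultraconserved and otherwise strongly conserved noncoding sequence of vertebrate genomes, and Eulor names low-copy repeats shared across bony vertebrates. Both are thought to be remnants of mobile elements that stopped moving long ago, and some of their copies have been kept under selection as noncoding sequence, in part as regulatory elements. They are therefore a different kind of repeat from the young retroviruses and LINE1 elements that are usually followed in pluripotent cells. Conservation was not measured here, and the names are used as the tables give them.

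The primed group was H9 kept in mTeSR, a medium for human cells in the primed state of pluripotency. The RSeT group was H9 kept in RSeT, a commercial medium for a naive-like state. The RSeT+DT group was H9 in RSeT with 10 nM DZNep and 5 nM TSA, collected 48 hours later. DZNep is an inhibitor that depletes the Polycomb enzyme EZH2 and thereby H3K27me3, a repressive histone mark. TSA (trichostatin A) blocks histone deacetylases. Both agents were given together in the same medium, so their effects cannot be told apart. All groups share 1 cell line. Whether the libraries of a group were grown as separate cultures is not said in the labels, so every p-value reflects how far these libraries vary, possibly for technical reasons alone.

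Libraries held between 11520770 and 38312112 repeat counts, RSeT replicate 1 being the deepest. HERVH-int, a retrovirus transcribed in human pluripotent cells, was present in every library, at 23829 to 26519 CPM in primed cells, 73442 to 75615 CPM in RSeT and 114855 to 118627 CPM in RSeT+DT cells. The summed level of 9 LTRs known from trophoblast was 2053 to 2140 CPM in primed cells, 2454 to 2514 CPM in RSeT and 2196 to 2249 CPM in RSeT+DT cells. None of these 9 was at 0. Without LTR17, which went from 166 to 171 CPM in primed to 546 to 577 CPM in RSeT+DT cells, the other 8 summed to 1888 to 1969 CPM in primed, 2003 to 2059 CPM in RSeT and 1619 to 1704 CPM in RSeT+DT cells, so that RSeT+DT was then below primed cells. Of the 9, 5 passed the test as higher and 1 as lower in RSeT against primed cells, 2 and 6 in RSeT+DT against RSeT cells, and 4 and 2 in RSeT+DT against primed cells. The part of other cell types in the results below was not tested.

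UCON and Eulor transcripts were a very small share of repeat RNA. UCON took 0.101% ± 0.00229 (SD, n = 2) of all repeat counts in primed cells, 0.0899% ± 0.00226 in RSeT cells and 0.0871% ± 0.00299 in RSeT+DT cells. Eulor took 0.00721% ± 3.02e-05 in primed cells, 0.00773% ± 3.34e-05 in RSeT cells and 0.00616% ± 4.56e-05 in RSeT+DT cells. The UCON share was highest in primed cells, without overlap, and the RSeT and RSeT+DT libraries overlapped. The Eulor share was highest in RSeT cells, without overlap, but as a share of counts other than simple repeats, small RNA and ribosomal RNA it was highest in primed cells, at 0.0116% against 0.0107% in RSeT cells. With 2 against 2 libraries an exact permutation test cannot go below p = 0.333, so shares were not tested. Without UCON132b, the UCON share was 0.0680% in primed cells, 0.0668% in RSeT cells and 0.0596% in RSeT+DT cells, and the primed and RSeT libraries then overlapped.

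Counts were low and unevenly spread. The median entry had 274 counts over all 6 libraries. The median count per entry was 104 in RSeT replicate 1 and 46 in RSeT replicate 2. In the primed libraries it was 39 and 36, and with DZNep and TSA 22 and 21. In the RSeT+DT libraries 29 and 31 of the 115 entries had fewer than 10 counts, against 4 and 14 in the RSeT libraries. UCON132b alone held 26.8% of the counts of all 115 entries, and it, UCON71_Crp, UCON80_AMi, UCON70 and UCON55 together held 45.1%. Among Eulor entries, Eulor2B, Eulor9A and Eulor9C held 51.3%. CPM is not per length, so this is an order of counts and not of transcript levels.

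**Figure D1:**
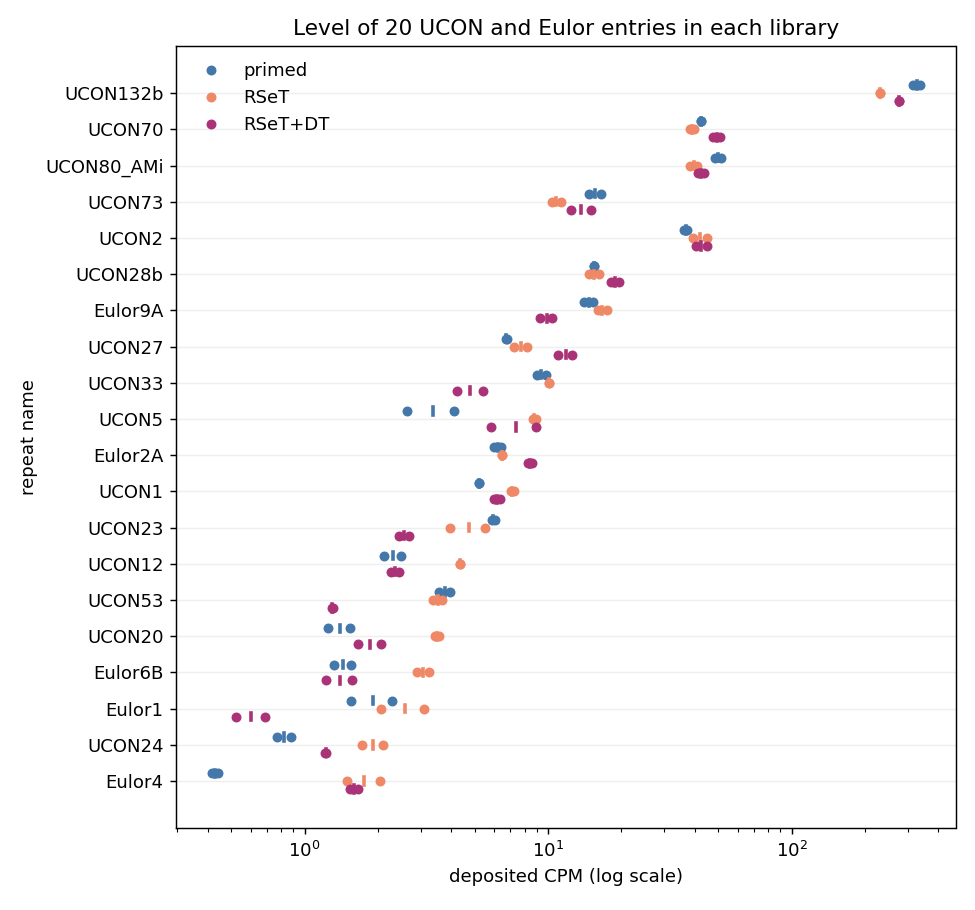
Each point is the CPM (log axis) of 1 UCON or Eulor entry in 1 library, with the groups in colour and a short line at each group's mean. UCON132b lies between 231 and 337 CPM, while Eulor4 lies between 0.416 and 2.04 CPM.

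Replicates of these entries differed slightly more than counting noise alone gives. The chi-square per degree of freedom between the libraries of a group was 1.14 in primed cells, 1.29 in RSeT cells and 1.73 in RSeT+DT cells. Of the 115 entries, 103 passed the filter on low counts and were tested, 84 UCON and 19 Eulor. The other 12 were not tested. The 3 of them with the highest counts were UCON57, Eulor6A and UCON19. UCON57 had 2 and 5 counts in primed cells, 33 and 9 in RSeT cells and 4 and 4 in RSeT+DT cells. Of the 103 tested, 79 reached the filter's level, 0.656 CPM, in all 6 libraries. Of the other 24, 3 (Eulor2C, Eulor3 and UCON69) reached it in 1 group alone. Eulor1, Eulor4, Eulor5B, UCON41 and UCON51, described below, are also among the 24. In Eulor4 and Eulor5B both primed libraries lay below that level, and in UCON41 both RSeT+DT libraries. These entries were tested through the groups in which they were higher.

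Against primed cells, RSeT cells had more RNA of 20 tested entries and less of 11, and 72 did not pass edgeR's quasi-likelihood test at an adjusted p of 0.05. Among all 4665 features tested, 22.8% passed as higher and 23.8% as lower. Among the 1154 features that are not simple repeats, small RNA or ribosomal RNA, here called interspersed, 50.8% passed as higher and 8.32% as lower. The rises were 14 of 84 UCON and 6 of 19 Eulor entries, and the falls were 11 UCON and 0 Eulor entries. This split depended on scaling. Normalized on interspersed features alone, 11 of 83 UCON entries were higher and 15 lower, and 5 of 18 Eulor entries higher and 2 lower. For Eulor, 8 of 19 had an unadjusted p under 0.05 in either direction, beside 2467 of the 4665 features and 737 of the 1154 interspersed features. The median log2 fold change of the 103 was 0.15, beside -0.03 over all features and 0.16 over interspersed features. Per entry the precision was lower: the median SE was 0.23 for UCON and Eulor and 0.059 for interspersed features. Of the 31 that passed, 30 had CPM that did not overlap between the groups. Passing entries were picked from the same counts, so such separation is likely by selection, here and in the comparisons below. Of all 103, passing or not, 33 were without overlap higher in RSeT cells and 36 lower, beside 24.4% and 49.2% of all features and 42.2% and 32.6% of interspersed features.

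These calls depended on the test, also for entries with many counts such as UCON80_AMi and UCON71_Crp, and the cause was not tested. DESeq2 kept 13 of the 31 calls in RSeT against primed cells, 12 of the 23 for which it gave an adjusted p in RSeT+DT against RSeT cells, and 13 of the 30 in RSeT+DT against primed cells. Of the entries described below, it did not keep Eulor5B, Eulor6E, Eulor9A, UCON35, UCON64, UCON73, UCON80 and UCON80_AMi in the first comparison. In the next it did not keep Eulor2A, UCON12, UCON20, UCON54, UCON64, UCON71_Crp and UCON80_AMi. In RSeT+DT against primed cells it did not keep Eulor1, Eulor6E, UCON1, UCON35 and UCON41. Limma on log2(CPM + 1) kept 21 of 31, 23 of 26 and 26 of 30 calls. It was run on CPM, so it differs from the main test in scaling as well. How many calls over all features these tests kept was not counted. Fold changes here use TMM, the scaling of the test, while CPM is scaled to library totals. They therefore differ from ratios of the CPM printed beside them. In the order of comparisons above, library totals moved the median log2 fold change over all features by -0.13, -0.15 and -0.29.

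The largest rise that passed was in Eulor4, which reached the filter's level only in RSeT and RSeT+DT cells, where it was high. Its fold changes and p-values are subject to that selection. Its level was 0.416 and 0.440 CPM in the primed libraries, 1.49 and 2.04 CPM in RSeT and 1.53 and 1.65 CPM in RSeT+DT. Both other groups lay above primed cells, and they overlapped each other. These levels rest on 7 and 6 counts in primed cells, 57 and 35 in RSeT cells and 20 and 19 in RSeT+DT cells. Eulor4 rose 4.30-fold in RSeT against primed cells (log2 fold change 2.10, SE 0.41, adjusted p = 0.000132 by edgeR) and stood 4.47-fold above primed cells in RSeT+DT (2.16, SE 0.45, adjusted p = 0.000331). Summing both libraries, the exact 95% Poisson interval was 0.227 to 0.730 CPM in primed and 1.34 to 2.03 CPM in RSeT cells, which covers counting error only.

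Eulor5B, also rare, was at 0.594 and 0.294 CPM in primed cells, 1.46 and 0.756 CPM in RSeT and 0.842 and 1.04 CPM in RSeT+DT cells. Primed cells were lowest, without overlap, and the 2 RSeT libraries differed widely and overlapped with RSeT+DT. It passed as 2.83-fold higher in RSeT than primed cells (log2 fold change 1.499, SE 0.47, adjusted p = 0.0107 by edgeR), but not without RSeT replicate 1 (0.84) or primed replicate 2 (1.10). Without primed replicate 1 it was 2.16.

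UCON5 rose by a similar factor from more counts. It was at 4.10 and 2.64 CPM in primed cells, 8.90 and 8.67 CPM in RSeT and 5.82 and 8.94 CPM in RSeT+DT libraries. The primed libraries were the lowest of the 6, and the RSeT+DT libraries differed from each other more than those of RSeT did. UCON5 rose 2.80-fold in RSeT cells (log2 fold change 1.49, SE 0.20, adjusted p = 8.93e-07) and was 2.59-fold above primed cells in RSeT+DT (1.37, SE 0.22, adjusted p = 1.77e-05). UCON1 was also lowest in primed cells. It was at 5.23 and 5.21 CPM in primed cells, 7.05 and 7.21 CPM in RSeT and 5.97 and 6.34 CPM in RSeT+DT cells, 1.49-fold up in RSeT (adjusted p = 0.0043 by edgeR). Its rise in RSeT+DT against primed cells (log2 fold change 0.52) no longer passed without either RSeT+DT library (0.54 without replicate 1, 0.52 without replicate 2) or either primed library (0.55 without replicate 1, 0.49 without replicate 2), nor with library totals (0.24).

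UCON55 is among the entries with the most counts. It was at 38.4 and 41.5 CPM in primed cells, 47.2 and 43.6 CPM in RSeT and 34.9 and 38.6 CPM in RSeT+DT cells. The RSeT libraries were the highest of the 6, and the other groups overlapped. UCON55 rose 1.26-fold in RSeT against primed cells (log2 fold change 0.33, SE 0.07, adjusted p = 0.000427 by edgeR) and passed without each library in turn, but not with limma on log2(CPM + 1) (0.19) or log2(CPM + 0.1) (0.19).

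Eulor6E was at 1.84 and 1.61 CPM in primed cells, 2.79 and 3.14 CPM in RSeT and 2.45 and 3.04 CPM in RSeT+DT cells. Primed cells were lowest and the other groups overlapped. Eulor6E rose 1.84-fold in RSeT cells (log2 fold change 0.88, SE 0.26, adjusted p = 0.00622 by edgeR), which did not pass without primed replicate 2 (0.77). It was 1.91-fold above primed cells in RSeT+DT (0.93, SE 0.29, adjusted p = 0.00978 by edgeR), which did not pass without RSeT+DT replicate 2 (0.82), without primed replicate 2 (0.82) or with library totals (0.65).

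UCON24 is a rarer entry. It was at 0.772 and 0.881 CPM in primed cells, 1.72 and 2.09 CPM in RSeT and 1.22 and 1.22 CPM in RSeT+DT cells. The 3 groups did not overlap, with RSeT+DT in between. UCON24 rose 2.47-fold in RSeT against primed cells (log2 fold change 1.31, SE 0.34, adjusted p = 0.00257 by edgeR), and neither comparison of RSeT+DT passed.

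Eulor6B, UCON12 and UCON20 rose in RSeT cells and were lower again in RSeT+DT cells. Eulor6B was at 1.54 and 1.32 CPM in primed cells, 2.90 and 3.26 CPM in RSeT and 1.22 and 1.56 CPM in RSeT+DT cells. The RSeT libraries were the highest, and primed and RSeT+DT libraries overlapped. It rose 2.30-fold (log2 fold change 1.20, SE 0.27, adjusted p = 0.000657 by edgeR) and then fell by 0.98 on the log2 scale (SE 0.29, adjusted p = 0.00764). That fall was -0.83 and did not pass without RSeT+DT replicate 1.

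UCON12 was at 2.49 and 2.13 CPM in primed cells, 4.36 and 4.36 CPM in RSeT and 2.45 and 2.26 CPM in RSeT+DT cells. Here too the primed and RSeT+DT libraries overlapped, and the rise was 2.05-fold (log2 fold change 1.03, SE 0.22, adjusted p = 0.000385 by edgeR). UCON20 was at 1.25 and 1.54 CPM in primed cells, 3.55 and 3.43 CPM in RSeT and 2.07 and 1.65 CPM in RSeT+DT cells. Its 3 groups did not overlap, and the rise was 2.77-fold (1.47, SE 0.26, adjusted p = 4.96e-05 by edgeR). The later falls were less firm. UCON12 fell by 0.73 on the log2 scale in RSeT+DT against RSeT cells (adjusted p = 0.0128 by edgeR), and this did not pass without RSeT replicate 1 (-0.73), without RSeT+DT replicate 2 (-0.64) or with scaling on interspersed features (-0.51). UCON20 fell by 0.75 (adjusted p = 0.0222 by edgeR), and this was lost without RSeT replicate 1 (-0.72), without RSeT replicate 2 (-0.77) or without RSeT+DT replicate 2 (-0.57), or with interspersed scaling (-0.53). The 2 comparisons share the RSeT libraries, so a high RSeT value enters both.

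UCON132b showed the opposite order and was the best measured entry. It was at 316 and 337 CPM in primed cells, 232 and 231 CPM in RSeT and 277 and 275 CPM in RSeT+DT cells. The 3 groups did not overlap, and the RSeT libraries were the lowest. UCON132b fell by 0.36 on the log2 scale in RSeT against primed cells (SE 0.03, adjusted p = 3.64e-09 by edgeR) and rose 1.33-fold in RSeT+DT against RSeT cells (0.41, SE 0.04, adjusted p = 1.25e-09). Between RSeT+DT and primed cells the log2 fold change was 0.05 (SE 0.04, adjusted p = 0.321 by edgeR) with TMM, the scaling used in the test. Scaled to library totals, as CPM is, it was -0.24 and passed (adjusted p = 9.54e-05), so this direction depends on the scaling.

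UCON73 was also lowest in RSeT cells. It was at 14.7 and 16.5 CPM in primed cells, 11.3 and 10.4 CPM in RSeT and 12.4 and 15.02 CPM in RSeT+DT cells. The RSeT libraries were again the lowest of the 6, and the RSeT+DT libraries overlapped with the primed ones. UCON73 fell by 0.38 in RSeT (adjusted p = 0.0113 by edgeR) and was 1.39-fold up in RSeT+DT (adjusted p = 0.00341). The fall did not pass without RSeT replicate 2 (-0.32) or primed replicate 2 (-0.32), and the rise did not pass without RSeT+DT replicate 2 (0.37).

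UCON51, UCON35, UCON80_AMi and UCON80 were lower in RSeT cells. UCON51 was at 2.26 and 1.91 CPM in primed cells, 0.914 and 0.582 CPM in RSeT and 1.30 and 0.955 CPM in RSeT+DT cells. Primed cells lay above both other groups. UCON51 fell by 1.26 on the log2 scale in RSeT cells (SE 0.34, adjusted p = 0.00352 by edgeR), which did not pass without primed replicate 1 (-1.10). UCON35 was at 10.6 and 11.96 CPM in primed cells, 6.81 and 7.80 CPM in RSeT and 6.89 and 6.08 CPM in RSeT+DT cells, again highest in primed cells. UCON35 fell by 0.51 in RSeT cells (SE 0.14, adjusted p = 0.0042 by edgeR), -0.40 and not passing without RSeT replicate 1. It stood 0.51 lower on the log2 scale in RSeT+DT than primed cells as well (log2 fold change -0.51, adjusted p = 0.0128 by edgeR), which did not pass without RSeT+DT replicate 2 (-0.38) or primed replicate 2 (-0.45).

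UCON80_AMi passed as lower in RSeT cells at 41.0 and 38.3 CPM against 48.6 and 51.1 CPM in primed cells (log2 fold change -0.19, adjusted p = 0.0207 by edgeR). Leaving out RSeT replicate 2 (-0.14), primed replicate 1 (-0.20) or primed replicate 2 (-0.18) ended this call. It was at 41.4 and 43.6 CPM in RSeT+DT cells, 1.18-fold above RSeT cells (log2 fold change 0.24, adjusted p = 0.00619 by edgeR), a call that ended without RSeT replicate 2 (0.20) and with library totals (0.09). UCON80, a related name, was at 5.23 and 5.21 CPM in primed cells, 2.40 and 3.72 CPM in RSeT and 2.45 and 2.86 CPM in RSeT+DT cells. Primed cells stood above both other groups. The fall in RSeT cells was 0.71 on the log2 scale (adjusted p = 0.0085 by edgeR), but -0.36 and not past the threshold without RSeT replicate 1, and -0.68 and not past it without primed replicate 1. Of the 11 falls in RSeT cells, that of UCON132b was the one that passed without each library in turn, against 8 of the 20 rises, and no call changed sign.

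In RSeT+DT against RSeT cells, 8 entries rose, 18 fell and 77 did not pass. Of all features tested, 25.0% passed as higher and 17.4% as lower, and of interspersed features 5.55% and 54.3%. The rises were 7 UCON and 1 Eulor entry, and the falls were 15 UCON and 3 Eulor entries. The median log2 fold change was -0.29, beside 0.03 over all features and -0.22 over interspersed features. The list's median thus had the sign of the interspersed median. Of the 26 that passed, 25 did not overlap in CPM. Of all 103, 9 were without overlap higher and 65 lower, beside 28.9% and 41.9% of all features and 4.77% and 85.7% of interspersed features. All 8 rises were among the 54 entries with a mean count of at least 50. Among the 49 with a lower mean count, 0 rose and 6 fell, with 14 of them at an unadjusted p under 0.05 in either direction. Of the 78 interspersed features with so low a mean count, which include these 49, 0 rose and 8 fell, and 17 had an unadjusted p under 0.05.

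**Figure D2:**
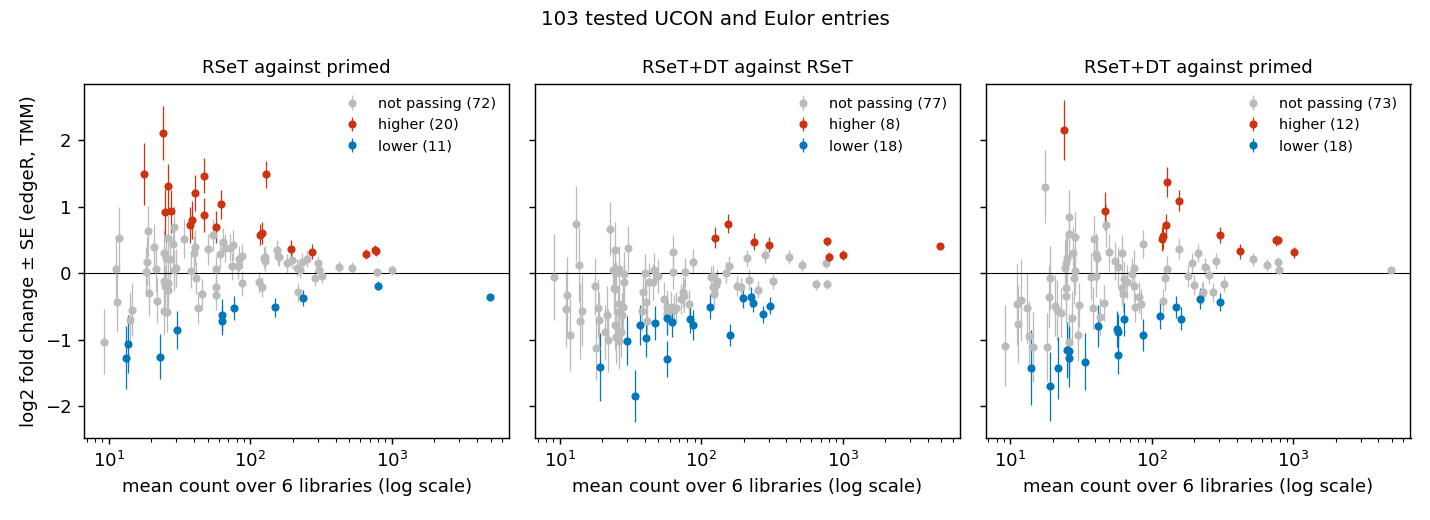
Log2 fold change (bars, SE) of each of the 103 tested UCON and Eulor entries against its mean count over the 6 libraries (log axis), 1 panel for each comparison, with entries that passed as higher in red and as lower in blue. Entries with few counts spread widely, and UCON132b stands at the right edge with log2 fold changes of -0.36, 0.41 and 0.05.

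The rises of UCON27, UCON70 and UCON132b passed under every alternative setting tried. UCON27 was at 6.71 and 6.75 CPM in primed cells, 8.17 and 7.27 CPM in RSeT and 11.02 and 12.6 CPM in RSeT+DT cells. The groups did not overlap, and levels went up from primed to RSeT to RSeT+DT. UCON27 rose 1.67-fold in RSeT+DT against RSeT cells (log2 fold change 0.74, SE 0.14, adjusted p = 0.000106 by edgeR) and 2.13-fold against primed cells (1.09, SE 0.15, adjusted p = 2.33e-06). Its step from primed to RSeT cells did not pass (adjusted p = 0.0583).

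UCON70 was at 42.3 and 42.6 CPM in primed cells, 39.9 and 38.1 CPM in RSeT and 47.5 and 50.9 CPM in RSeT+DT cells. The RSeT+DT libraries were the highest. UCON70 rose 1.39-fold against RSeT cells (log2 fold change 0.48, SE 0.07, adjusted p = 2.43e-06 by edgeR) and 1.41-fold against primed cells (0.49, SE 0.07, adjusted p = 3.20e-06). Eulor2A was the 1 Eulor entry that rose against RSeT cells. It was at 6.41 and 6.02 CPM in primed cells, 6.47 and 6.46 CPM in RSeT and 8.27 and 8.59 CPM in RSeT+DT cells, 1.45-fold above RSeT (adjusted p = 0.00643) and 1.65-fold above primed cells (adjusted p = 0.000915 by edgeR). The rise against RSeT cells did not pass with DESeq2 or with limma at either pseudocount. Eulor2B, which has the highest count of the Eulor entries, was at 17.05 and 16.6 CPM in primed cells, 14.8 and 14.1 CPM in RSeT and 16.3 and 15.1 CPM in RSeT+DT cells and passed in no comparison.

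UCON28b was at 15.4 and 15.5 CPM in primed cells, 16.2 and 14.8 CPM in RSeT and 19.6 and 18.1 CPM in RSeT+DT cells. Primed and RSeT libraries overlapped and RSeT+DT lay above both. It rose 1.35-fold against RSeT cells (adjusted p = 0.00249 by edgeR), a log2 fold change of 0.43 that was 0.34 and did not pass without RSeT+DT replicate 1, and 1.49-fold against primed cells (adjusted p = 0.000248). The calls of UCON71_Crp depended on single libraries. It was at 62.2 CPM in RSeT+DT replicate 1 and 51.5 CPM in replicate 2, and at 53.9 and 51.0 CPM in RSeT and 57.4 and 54.2 CPM in primed cells. The log2 fold change of RSeT+DT against RSeT was 0.27, and it did not pass at 0.09 without RSeT+DT replicate 1 or at 0.24 without RSeT replicate 2. Against primed cells it was 0.32, and 0.14 and not passing without RSeT+DT replicate 1. Neither call passed with library totals (0.11 and 0.03).

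Among the falls in RSeT+DT cells, those of Eulor1, UCON53, UCON33 and Eulor9A passed under every alternative that gave a value. Eulor1 was at 1.54 and 2.27 CPM in primed cells, 2.06 and 3.08 CPM in RSeT and 0.689 and 0.521 CPM in RSeT+DT cells. RSeT+DT was lowest, and the other groups overlapped. The values rest on 9 and 6 counts in RSeT+DT and 79 and 53 in RSeT cells. Eulor1 fell by 1.85 on the log2 scale against RSeT cells (SE 0.39, adjusted p = 0.000399 by edgeR). Against primed cells it fell by 1.33 (SE 0.43, adjusted p = 0.0139), which did not pass without RSeT+DT replicate 2 (-1.12) or primed replicate 2 (-1.07).

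UCON53 was at 3.56 and 3.96 CPM in primed cells, 3.68 and 3.37 CPM in RSeT and 1.30 and 1.30 CPM in RSeT+DT cells. RSeT+DT lay below the other groups, which overlapped. UCON53 fell by 1.29 on the log2 scale against RSeT cells (SE 0.27, adjusted p = 0.000366 by edgeR) and by 1.24 against primed cells (SE 0.29, adjusted p = 0.000913). UCON33 was at 8.97 and 9.76 CPM in primed cells, 10.1 and 10.1 CPM in RSeT and 4.21 and 5.38 CPM in RSeT+DT cells. Again RSeT+DT lay below both other groups. It fell by 0.93 against RSeT cells (SE 0.16, adjusted p = 4.42e-05 by edgeR) and by 0.68 against primed cells (SE 0.17, adjusted p = 0.0022), the latter at -0.53 and not past the threshold without RSeT+DT replicate 1.

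Eulor9A had the highest count among the Eulor entries that fell. It was at 15.3 and 14.02 CPM in primed cells, 17.4 and 16.1 CPM in RSeT and 10.4 and 9.29 CPM in RSeT+DT cells. The 3 groups did not overlap, with RSeT highest. Eulor9A fell by 0.61 on the log2 scale in RSeT+DT against RSeT cells (SE 0.13, adjusted p = 0.000315 by edgeR). Its rise in RSeT against primed cells was 0.33 (adjusted p = 0.0209) and did not pass without RSeT replicate 1 (0.25) or primed replicate 2 (0.24), with library totals (0.19) or with interspersed scaling (0.17).

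UCON107, UCON41 and UCON54 fell less firmly. UCON107 was at 19.8 and 17.5 CPM in primed cells, 17.5 and 18.0 CPM in RSeT and 10.0 and 12.8 CPM in RSeT+DT cells. RSeT+DT was lowest, and the other groups overlapped. UCON107 fell by 0.49 against RSeT cells (SE 0.13, adjusted p = 0.00272 by edgeR), -0.34 and not passing without RSeT+DT replicate 1 and -0.27 and not passing with interspersed scaling. Against primed cells it fell by 0.44 (adjusted p = 0.00867 by edgeR), which did not pass without RSeT+DT replicate 1 (-0.29) or primed replicate 1 (-0.30).

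UCON41 rests on 4 and 5 counts in RSeT+DT cells and 43 and 18 in RSeT cells. It was at 1.78 and 1.10 CPM in primed cells, 1.12 and 1.05 CPM in RSeT and 0.306 and 0.434 CPM in RSeT+DT cells, the lowest group. It fell by 1.41 against RSeT cells (SE 0.51, adjusted p = 0.0278 by edgeR) and did not pass without RSeT replicate 1 (-1.34), RSeT replicate 2 (-1.45), RSeT+DT replicate 1 (-1.20) or RSeT+DT replicate 2 (-1.63), or with interspersed scaling (-1.20). Against primed cells it fell by 1.70 (SE 0.52, adjusted p = 0.0087 by edgeR), which did not pass without RSeT+DT replicate 1 (-1.49) or primed replicate 1 (-1.26). UCON54 was at 4.75 and 4.84 CPM in primed cells, 5.35 and 4.71 CPM in RSeT and 2.37 and 3.39 CPM in RSeT+DT cells. RSeT+DT was lowest and the other groups overlapped. It fell by 0.68 against RSeT cells (SE 0.22, adjusted p = 0.0125 by edgeR), which did not pass without RSeT replicate 1 (-0.57), without RSeT+DT replicate 1 (-0.46) or with interspersed scaling (-0.47).

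UCON23 was lower in RSeT+DT cells, at 2.45 and 2.69 CPM, than in RSeT cells at 5.51 and 3.96 CPM or primed cells at 6.06 and 5.87 CPM. The RSeT+DT libraries were the lowest of the 6. It fell by 0.78 against RSeT cells (SE 0.23, adjusted p = 0.00727 by edgeR), which did not pass without RSeT replicate 1 (-0.47) or RSeT+DT replicate 1 (-0.74). Against primed cells it fell by 0.93 (SE 0.24, adjusted p = 0.00207) and passed without each library. Of the falls against RSeT cells, 4 of 18 passed without each library in turn, and of the rises 4 of 8.

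RSeT+DT and primed cells differed in 30 entries, 12 higher and 18 lower, with 73 not passing. Of all features, 25.1% passed as higher and 20.6% as lower, and of interspersed features 24.6% and 34.3%. The median log2 fold change was -0.13, beside -0.01 over all features and -0.07 over interspersed features. The rises were 9 UCON and 3 Eulor entries, and the falls 15 UCON and 3 Eulor entries. Of the 30, 28 did not overlap in CPM. Of all 103, 15 were without overlap higher and 61 lower, beside 20.2% and 54.5% of all features and 14.8% and 70.8% of interspersed features.

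UCON2 had a mean of 36.8 CPM in primed and 42.6 CPM in RSeT+DT cells, a smaller step than its fold change with TMM, given next. It was at 36.3 and 37.3 CPM in primed cells, 44.9 and 39.4 CPM in RSeT and 40.4 and 44.8 CPM in RSeT+DT cells. It was above primed in both other groups, 1.41-fold in RSeT+DT (log2 fold change 0.50, SE 0.08, adjusted p = 1.94e-05 by edgeR) and 1.27-fold in RSeT cells (0.34, adjusted p = 0.00051), the latter at 0.23 and not passing without RSeT replicate 1, and at 0.18 and not passing with limma at both pseudocounts. Of the 12 rises, 7 passed without each library in turn, and of the 18 falls 2 did, UCON23 and UCON53.

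The order of the 3 groups differed between entries. Over the 103 tested, 5 were higher in RSeT than primed cells and lower again with DZNep and TSA (Eulor6B, Eulor9A, UCON12, UCON20 and UCON64), and 3 went the other way (UCON132b, UCON73 and UCON80_AMi). Another 5 did not pass between RSeT and primed cells but were higher in RSeT+DT than in both (Eulor2A, UCON27, UCON28b, UCON70 and UCON71_Crp), and 8 were lower than in both. No comparison passed for 45 entries. Each pair of these comparisons shares a group, so the patterns are a description of the calls. How many of all features show each pattern was not counted, so the counts are not read as particular to these entries. With TMM, 50.8% of interspersed features were higher in RSeT than primed cells, and 54.3% lower in RSeT+DT than RSeT cells. For UCON64, both calls ended with DESeq2 and with interspersed scaling.

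Names that share a stem can share reads. Several stems hold more than 1 name, and their counts were also summed. The 5 Eulor6 names together were higher in RSeT than in primed cells (log2 fold change 0.56, SE 0.15, adjusted p = 0.00379 by edgeR) and lower in RSeT+DT than in RSeT cells (-0.47, SE 0.16, adjusted p = 0.0222). The sum of the 3 Eulor9 names rose by 0.31 (adjusted p = 0.00982) and fell by 0.43 (SE 0.11, adjusted p = 0.00174 by edgeR). The stem UCON80, summing UCON80 and UCON80_AMi, went the opposite way, at -0.23 (adjusted p = 0.00399 by edgeR) and then 0.23 (adjusted p = 0.00726). The sum of the 2 UCON12 names rose by 0.74 in RSeT cells (SE 0.17, adjusted p = 0.00109 by edgeR), and its fall in RSeT+DT cells, -0.44, did not pass (adjusted p = 0.057). The 3 Eulor2 names together were higher in RSeT+DT than in RSeT cells (0.32, adjusted p = 0.00794 by edgeR) and than in primed cells (0.34, adjusted p = 0.00747). The sum of the 3 UCON28 names was higher in RSeT than primed cells (0.21, adjusted p = 0.0475 by edgeR), and in RSeT+DT than in RSeT (0.28, adjusted p = 0.00903) and primed cells (0.49, adjusted p = 8.70e-05). The sum of the 2 UCON71 names was higher in RSeT+DT than in RSeT cells (0.26, adjusted p = 0.00788 by edgeR) and primed cells (0.30, adjusted p = 0.00297). UCON71_Crp held 6053 of these counts and UCON71 148, so the sum is mostly that of UCON71_Crp. UCON71 alone was at -0.23 and -0.35 and did not pass. Likewise UCON80_AMi held 4788 counts and UCON80 380. The sum of the 2 Eulor5 names passed in no comparison. These sums were chosen after seeing the data.

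**Figure D3:**
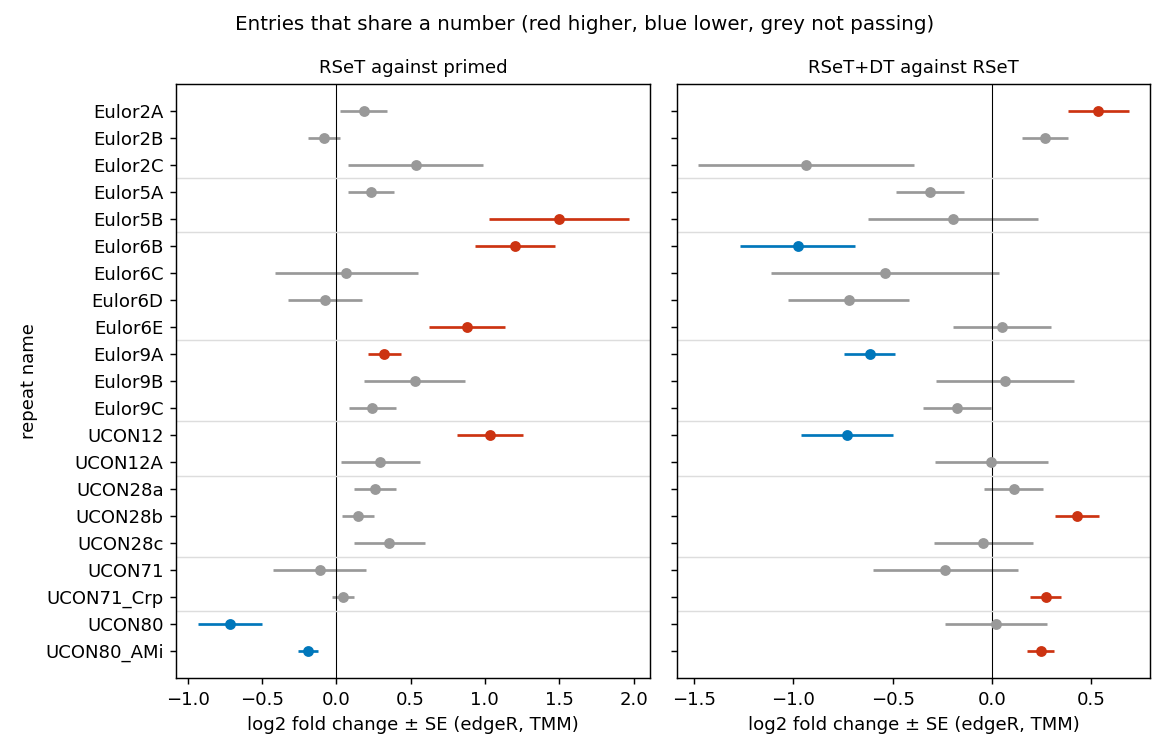
Points give the log2 fold change (bars, SE) of tested entries whose names share a stem, in RSeT against primed and RSeT+DT against RSeT cells, coloured red where higher, blue where lower and grey where not passing. In the left panel UCON80 at -0.71 and UCON80_AMi at -0.19 both lie below 0, while of the Eulor6 names Eulor6B and Eulor6E alone passed.

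Scaling changed the balance of higher and lower calls. With normalization on interspersed features alone, 101 entries were tested. In RSeT against primed cells 16 rose and 17 fell (median log2 fold change -0.01), where 30.1% and 26.5% of all features tested on that scale did. In RSeT+DT against RSeT cells 13 rose and 6 fell (median -0.05), beside 22.7% and 20.8%, and in RSeT+DT against primed cells 20 rose and 17 fell (median -0.03), beside 32.3% and 29.6%. This scaling moved the median of all features it tested by -0.16, 0.22 and 0.06 on the log2 scale in the 3 comparisons. Library totals in place of TMM moved the median of all features by -0.13, -0.15 and -0.29, and the split of higher to lower calls was then 13 to 13 for RSeT against primed cells, 6 to 38 for RSeT+DT against RSeT cells and 7 to 37 for RSeT+DT against primed cells. All features moved with it: 14.6% passed as higher and 32.9% as lower in the first, 16.9% and 24.8% in the next, and 13% and 38.3% in RSeT+DT against primed cells. Of the falls in RSeT+DT against RSeT cells, 6 of 18 passed in every scaling, against 17 of 18 falls in RSeT+DT against primed cells. The balance of higher and lower calls thus depended on the scaling. In RSeT against primed cells the list's median went from 0.15 with TMM to -0.0054 with interspersed scaling. In RSeT+DT against RSeT cells it was negative with TMM (-0.29), library totals (-0.44) and interspersed scaling (-0.051). Against primed cells RSeT+DT gave -0.13, -0.42 and -0.031. Over the 54 entries with a mean count of at least 50, interspersed scaling gave 0.048 and 0.050 for RSeT+DT against RSeT and primed cells. No call of a single entry with TMM reversed its sign under any setting that kept names apart.

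**Figure D4:**
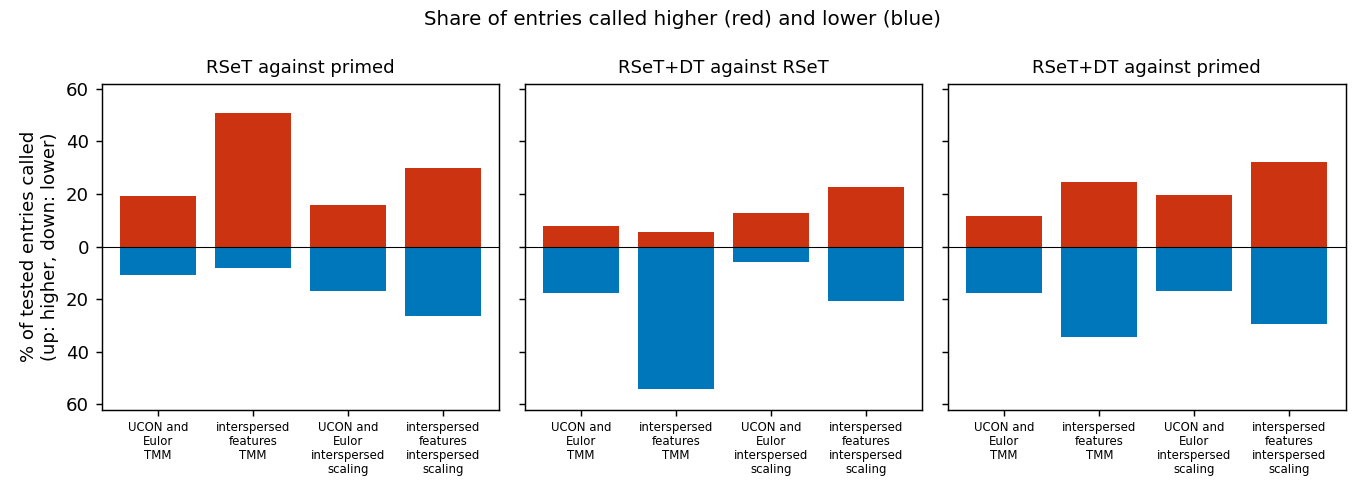
Bars give the percent of tested UCON and Eulor entries, and of tested interspersed features, that passed as higher (red, up) and lower (blue, down) with TMM and with interspersed scaling, 1 panel for each comparison. In RSeT+DT against RSeT cells 54.3% of interspersed features passed as lower with TMM and 20.8% with interspersed scaling.

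Other old repeats were set beside the UCON and Eulor entries, by counts and medians only. In RSeT+DT against RSeT cells with TMM, 0 of 12 MIR and L2 entries were higher and 9 lower, 5 of 28 old LINE entries (L3, CR1 and others) were higher and 16 lower, and 3 of 43 other conserved fragments were higher and 16 lower. Their medians were -0.22, -0.30 and -0.13, beside -0.29 for UCON and Eulor. These falls depend on the scaling: with interspersed scaling 2 MIR and L2 entries were higher and 0 lower, 8 old LINE entries higher and 6 lower, and 13 other conserved fragments higher and 5 lower, with medians of 0.00026, -0.084 and 0.091. In RSeT against primed cells the medians were -0.0048, 0.079 and 0.085 with TMM, beside 0.15, and -0.17, -0.082 and -0.075 with interspersed scaling, beside -0.0054.

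Each value sums all genomic copies of a name, so no genome position belongs to it. Copies in introns or untranslated regions also collect reads of the host transcript, and the part of host genes was not tested. In bulk RNA, fewer cells making a transcript and less of it per cell cannot be told apart.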

How the data were processed

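RNA of 6 libraries was extracted with a miRNeasy kit and made into stranded total RNA libraries, per the labels' protocols. The authors deposited a table of raw counts per repeat name, and a table of CPM, each count scaled to the summed counts of its library, which was checked against the count table. The submitters' processing notes name GRCh38/hg38 together with Subread 2.14.2, featureCounts, STAR 2.7.8a and Trimmomatic 0.39. Which repeat annotation was used, how reads with several positions were counted and whether strand was used is not given in the sources used here. No other value columns were left aside.

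Counts were tested with edgeR 4.0.16 (R 4.3.3; limma 3.58.1 and DESeq2 1.42.0 for alternatives): filterByExpr (count of 10, total of 15), TMM factors, 1 quasi-likelihood fit of all 6 libraries by group, and p-values adjusted by Benjamini-Hochberg over the 4665 features tested, with a threshold of 0.05. Residual degrees of freedom were 3, and the common coefficient of biological variation 5.49%. The test was checked on simulated data with 1.5-fold and 2-fold changes. At mean counts of at least 50 it found 81.7% to 93.4% of the 1.5-fold and 93.3% to 100% of the 2-fold changes. At mean counts under 50, where 49 of the 103 tested entries lie, it found 3.45% to 10.5% and 40.5% to 57.5%. Few features were changed there, unlike in these data, so it does not cover the effect of scaling. With few changes the adjusted threshold is also stricter than in these data. All simulated features had the common coefficient of variation, unlike real entries. The shares found therefore need not hold for the real test. Totals and depths stand in the report. Intervals cover counting error only.

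Members and lists were chosen with earlier results of these data known. Named were, per comparison, up to 12 rises and 12 falls that passed with CPM not overlapping, the entries with the highest mean CPM, 5 entries named in earlier results, and the 3 untested entries with the highest counts. From these, entries whose calls were kept under most alternatives, or that show a limit, are described in full. Alternatives were other scalings, filters and tools, leaving out each library, thinning RSeT replicate 1 and a replicate block.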

Additional observations from a re-analysis of the deposited data

How the results depend on the processing

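Counts of UCON and Eulor entries and medians of their log2 fold changes moved with scaling and tool. With a mean count of at least 50, 54 entries were tested in place of 103, so those counts have a smaller base. In the main fit these 54 already gave 10 higher and 7 lower in RSeT against primed cells. With interspersed scaling and no such filter they gave 7 higher there, and 13 higher and 4 lower in RSeT+DT against RSeT cells. For RSeT against primed cells, the number higher was 13 with library totals, 10 with a mean count of at least 50, 11 with DESeq2, 10 with limma on log2(CPM + 1) and 10 on log2(CPM + 0.1), and 10 to 21 without each library in turn. Over all features, 305 of 1151 were lower with interspersed scaling, 881 of 2942 with mean count of at least 50 and 686 of 4665 with DESeq2. The number of entries lower was 17 with interspersed scaling, 7 with mean count of at least 50 and 2 with DESeq2. The median was 0.017 with library totals, -0.0054 with interspersed scaling, 0.0058 and 0.0013 with limma, 0.11 with related names summed and 0.10 to 0.19 without each library. For RSeT+DT against RSeT cells, the number higher was 13 with interspersed scaling, 5 with DESeq2 and 5 with limma at both pseudocounts. Over all features, 261 of 1151 were higher with interspersed scaling, and of 4665, 823 with DESeq2 and 770 and 758 with limma. The number lower was 38 with library totals, 6 with interspersed scaling, 7 with DESeq2, 37 and 36 with limma, and 6 to 18 without each library. The median was -0.33 with RLE, -0.44 with library totals, -0.051 with interspersed scaling, -0.35 with no filter, -0.24 with mean count of at least 50, -0.34 with DESeq2, -0.46 with limma and 0.1, -0.34 with RSeT replicate 1 thinned, -0.36 with related names summed and -0.33 to -0.20 without each library. For RSeT+DT against primed cells, the number higher was 7 with library totals and 20 with interspersed scaling. Over all features it was 608 of 4665 and 372 of 1151. The number lower was 37 with library totals, 5 with DESeq2, 42 and 38 with limma, and 8 to 15 without each library. The median was -0.42 with library totals, -0.031 with interspersed scaling, -0.30 and -0.40 with limma, and -0.18 to -0.12 without each library. Interspersed scaling with a mean count of at least 50 was chosen, with the sums of related names, after seeing the data. It gave 7 higher and a median of -0.0030 in RSeT against primed cells. In RSeT+DT against RSeT cells it gave 14 higher, 4 lower and 0.048, and in RSeT+DT against primed cells 9 lower and 0.050. Over all 1076 features, 328 were higher in the first comparison, 280 higher and 207 lower in the next, and 319 lower in the last.

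In RSeT+DT against primed cells, where neither passed with TMM, UCON132b turned to -0.24 with library totals, -0.035 with mean count of at least 50 and -0.24 with both limma settings, and UCON80_AMi to -0.23, -0.026 and -0.23. UCON took 0.162%, 0.125% and 0.139% of interspersed counts in primed, RSeT and RSeT+DT cells, and 0.0680%, 0.0668% and 0.0596% of all counts without UCON132b. Eulor took 0.0116%, 0.0107% and 0.00984%, and without Eulor2B 0.00553%, 0.00628% and 0.00459%. The cause of these shifts was not tested. Low counts limit many entries, and DESeq2 gave no adjusted p for 37 of the tested entries in RSeT+DT against RSeT cells.

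Deviations of same-numbered libraries were hardly correlated (0.038, 0.022 and -0.042). Counting noise in low counts weakens such correlations, so they cannot exclude that the replicate numbers pair the libraries. With a replicate block, 20 entries passed as higher and 10 as lower in RSeT against primed cells. The numbers were 8 and 17 in RSeT+DT against RSeT cells, and 12 and 16 in RSeT+DT against primed cells. Of all 4665 features, 1053 and 1104 passed in the first comparison, 1148 and 801 in the next and 1166 and 961 in the last.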
